A study of Mus musculus with 12 samples.

Results

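The livers of 3 mice given carbon tetrachloride and the highest of 3 doses of curcumin (high) were compared with those of 3 mice given carbon tetrachloride without curcumin (control), across every expressed gene, with the question which differences hold in each of the 3 high-dose libraries. The members are the 6 libraries whose labels name these groups, out of 12 in all, and the other 6 are low-dose and medium-dose livers. All mice were wild-type C57BL/6J, 6 weeks old when the model was set up, and all received 200 µL of 7.5% carbon tetrachloride in olive oil into the peritoneum 2 times a week for 6 weeks. High-dose mice had curcumin by gavage at 100 mg/kg every day for 2 weeks, and the low and medium groups had 25 and 50 mg/kg. Liver without carbon tetrachloride was not analysed here, so each value below compares injured livers. The labels do not say whether controls had a gavage without curcumin. Mice were caged in threes, so cage and dose cannot be told apart if each group shared a cage.

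Carbon tetrachloride is turned into a reactive radical by the cytochrome CYP2E1 of hepatocytes around the central vein, and repeated dosing kills these cells, draws in leukocytes and activates stellate cells, which lay down scar collagen. Curcumin, the yellow polyphenol of turmeric, is known to dampen NF-κB signalling and to be conjugated quickly by glucuronosyltransferases and sulfotransferases of gut and liver. In the fasted liver the transcription factor FOXO1 drives glucose release and the coactivator lipin-1 supports fat burning, while insulin opposes FOXO1. In bulk tissue a lower transcript level from fewer cells of a type and one from less RNA per cell cannot be told apart.

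Each of the 6 libraries held 36015134 to 70376474 counts, in which 18437 to 21402 genes had at least 1 count, and 16839 genes were tested. Mitochondrially encoded genes took 30.3%, 64.7% and 42.1% of counts in high 1, 2 and 3, against 58.6%, 60.9% and 64.2% in controls 1, 2 and 3. High 2 thus lay just above the controls, and high 1 and 3 far below them. On the first principal component of all 12 libraries (29.2% of the variance) high 1 and 3 stood at -111.9 and -59.9, high 2 at 51.8, and the controls between 17.0 and 48.9. All 19 tested hepatocyte genes were present, and albumin (Alb) made up 10.1%, 1.38% and 8.49% of the counts outside mitochondrial genes and their nuclear copies in high 1, 2 and 3, against 3.96%, 2.27% and 1.64% in the controls. Values below are CPM, counts scaled to a common library size with edgeR's TMM factors, unless stated, and log2 fold changes are high minus control with their SE.

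No gene passed the test between high dose and control. Of 16839 genes, 0 (0%) had an adjusted p under 0.05 in edgeR's quasi-likelihood test. Before adjustment 2152 (12.8%) had a p under 0.05, of which 1326 (7.87%) lay higher and 826 (4.91%) lower. The smallest adjusted p was 0.114. DESeq2 called 172 genes (1.02%, 84 higher and 88 lower). By limma's voom with quality weights the count was 256 (1.52%, 84 higher and 172 lower), and 102 genes were called by both, 43 higher and 59 lower. In 100 of these 102 the groups did not overlap, against 2187 of 16839 over all genes. Both calls rest on the same counts in which overlap was judged. The lack of overlap was thus largely given by selection and is not independent support for the calls.

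The 3 high-dose livers did not move as one. A gene was counted as holding in a high-dose library when its log2 CPM there lay outside the range of the 3 controls. All 3 high-dose libraries lay above that range for 1089 genes (6.47%) and below it for 1098 (6.52%). Scaled by library totals instead, these counts were 860 and 201, so the balance of directions depends on the scaling. High 1 lay outside it for 72.6% of genes, high 3 for 62.7% and high 2 for 51.6%. For 2110 genes (12.5%) high 1 and 3 lay on one side and high 2 on the other, while high 3 alone lay opposite in 234 (1.39%) and high 1 alone in 451 (2.68%). In a further 3437 genes (20.4%) high 1 and 3 lay outside on the same side with high 2 inside the control range.

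**Figure D1:**
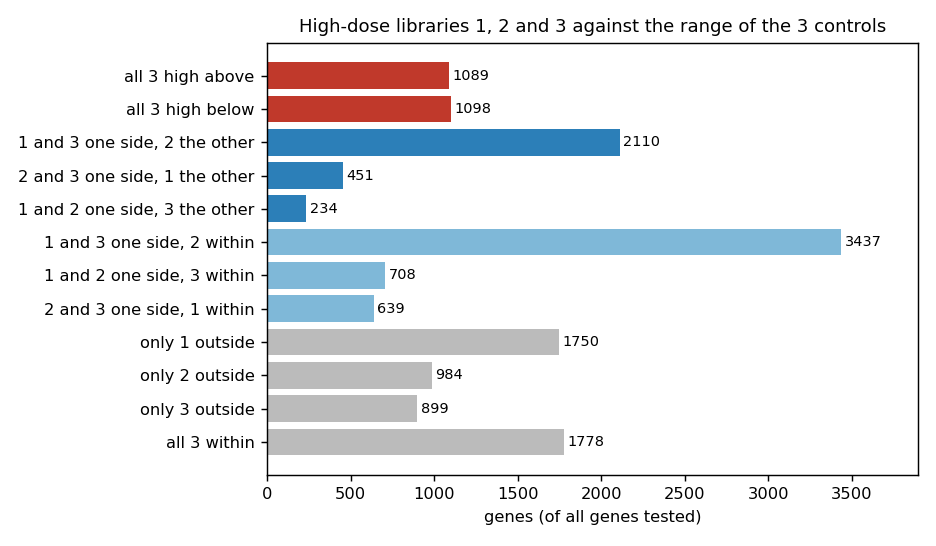
Number of genes (x axis, of 16839 tested) by where high-dose libraries 1, 2 and 3 lie relative to the range of the 3 controls. The 2 top bars are the genes that hold in all 3 libraries (1089 above and 1098 below), and the bars with high 1 and 3 on one side (2110 with high 2 on the other and 3437 with high 2 within) exceed the like bars for the other pairs.

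Among genes that met the naming filters (given under processing), those with the smallest p on the higher side lay above the controls in every high-dose liver. None passed the adjusted threshold, and the smallest adjusted p of all genes (0.114 by edgeR) lay outside these filters. Pfkfb3, which makes the fructose bisphosphate that speeds glycolysis, stood at 8.71, 11.8 and 16.1 CPM in high 1, 2 and 3, against 3.57, 2.30 and 1.94 CPM in the controls. Its lowest high-dose value was above its highest control value, with a log2 fold change of 2.23 ± 0.38 (edgeR adjusted p = 0.320). Lpin1, the phosphatidate phosphatase and coactivator lipin-1, stood at 79.9, 147 and 193 CPM in high-dose livers, against 25.2, 18.4 and 17.2 CPM in controls. It was named for the width of its gap, so a lack of overlap was given by its selection, and its log2 fold change was 2.79 ± 0.65. Foxo1 stood at 14.4, 19.5 and 18.6 CPM in high-dose livers, against 7.65, 6.59 and 6.33 CPM in controls, a difference of 1.35 ± 0.27 with both groups tightly placed. Ddit4, an inhibitor of the growth kinase mTORC1, stood at 7.70, 6.37 and 8.54 CPM in high-dose livers, against 1.89, 1.72 and 1.32 CPM in controls (means of 7.53 ± 1.10 and 1.64 ± 0.294 CPM, SD, n = 3 each). The separation of Ddit4 was wide, since the lowest high-dose liver was more than 3 times the highest control.

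Several other genes showed the same separation in all 3 livers. Tcim, a small regulator of WNT signalling, stood at 57.3, 87.4 and 84.0 CPM in high-dose livers, against 18.9, 15.4 and 9.81 CPM in controls (2.37 ± 0.45). Il6ra, the receptor chain that binds interleukin-6, stood at 19.4, 21.0 and 30.3 CPM in high-dose livers, against 7.98, 7.72 and 9.63 CPM in controls (1.48 ± 0.32). Neither gene had a high-dose value near its controls. Cebpd (1.16 ± 0.25), a C/EBP transcription factor of the acute phase, St3gal5 (2.11 ± 0.47), which makes the ganglioside GM3, and the flavin monooxygenase gene Fmo5 (2.21 ± 0.56) were arranged likewise, as were Rbm14, Tmem50a, Rasgef1b, Sra1 and Pcp4l1 (1.10 to 1.54). Of these genes St3gal5, Fmo5 and Pcp4l1 were named for the width of their gap alone, so their lack of overlap was given by selection. Tcim and Il6ra were named by both p and gap. Adjusted p-values of all the genes in this paragraph were 0.320 to 0.322 by edgeR. DESeq2 called all 10 higher genes named for the smallest p, and voom called 9 of them. These genes were chosen by their p in the same counts, so such calls are not independent support.

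**Figure D2:**
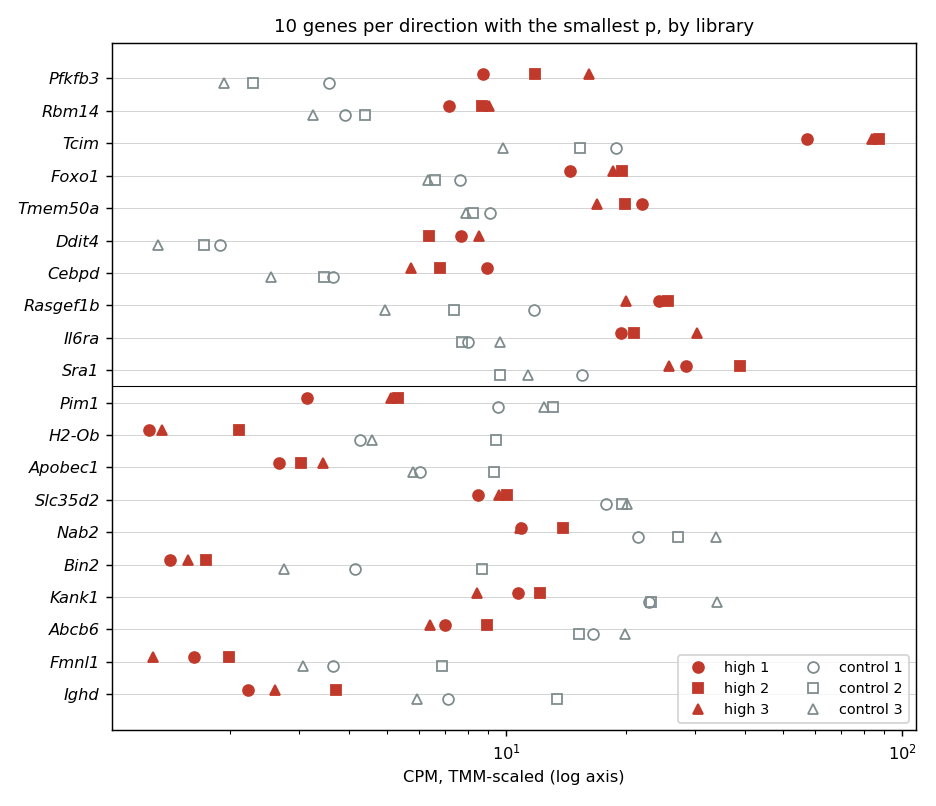
CPM (TMM-scaled, log axis) in each library of the 10 genes per direction with the smallest p among those that met the naming filters. Filled red marks are high-dose livers 1, 2 and 3 and open grey marks are controls 1, 2 and 3. In each of the 20 genes all red marks lie on one side of all grey marks, for example Pfkfb3 at 8.71 to 16.1 against 1.94 to 3.57 and Slc35d2 at 8.49 to 10.1 against 17.8 to 20.2.

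The promoters of these genes were read for 4 short motifs, since members that separate together can share letters upstream. Windows of 300 bases (250 before and 50 after the RefSeq start, GRCm38.p6) were at hand for 12 of the 16 named higher genes and for 11436 tested genes. The E-box CACGTG, bound by clock and MYC family factors, was in the windows of Pfkfb3 and Il6ra among the 12 (16.7%), against 11.1% of all tested genes, counting both strands. Among the 745 genes with a window and all 3 high-dose livers above the controls, it was in 11.8%, and among the 744 below, in 8.60%. The FOXO motif GTAAACA was in 0 of the 12, in 3.89% of the 745, in 3.76% of the 744 and in 3.38% of all. The cAMP response element TGACGTCA was in 4.30%, 3.09% and 3.30% of those 3 sets, and the AP-1 motif TGACTCA in 5.23%, 4.03% and 4.81%. Among the 12, AP-1 was in the window of Plin5 (8.33%) and the cAMP element in 0. These shares lie near those over all genes, and a match is a run of letters and not a bound site. Both E-box windows, on the minus strand at chr2:11502041-11502340 for Pfkfb3 and chr3:89913147-89913446 for Il6ra, are shown with the motif in capitals because they are the 2 E-box matches among the named higher genes.
Pfkfb3: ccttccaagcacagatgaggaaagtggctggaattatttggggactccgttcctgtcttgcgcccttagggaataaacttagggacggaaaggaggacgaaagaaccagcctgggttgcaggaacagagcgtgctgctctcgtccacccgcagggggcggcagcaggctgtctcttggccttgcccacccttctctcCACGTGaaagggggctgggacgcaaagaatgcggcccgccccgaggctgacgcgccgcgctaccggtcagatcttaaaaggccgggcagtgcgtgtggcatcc
Il6ra: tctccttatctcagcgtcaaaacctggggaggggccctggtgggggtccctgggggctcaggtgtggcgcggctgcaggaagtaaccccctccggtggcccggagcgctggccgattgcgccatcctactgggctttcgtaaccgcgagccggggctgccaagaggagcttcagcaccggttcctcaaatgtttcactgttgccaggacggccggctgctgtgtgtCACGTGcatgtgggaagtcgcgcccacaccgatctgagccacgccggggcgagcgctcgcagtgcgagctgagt

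Genes that lay lower in every high-dose liver included signalling, immune and transport genes. Pim1, a cytokine-induced survival kinase, stood at 3.13, 5.33 and 5.12 CPM in high-dose livers, against 9.54, 13.1 and 12.4 CPM in controls (-1.37 ± 0.26, edgeR adjusted p = 0.320). H2-Ob, a chaperone subunit of antigen loading in B cells, stood at 1.25, 2.11 and 1.35 CPM in high-dose livers, against 4.28, 9.40 and 4.57 CPM in controls (-1.96 ± 0.39). For both, every high-dose liver was below every control. Slc35d2, a nucleotide sugar transporter of the Golgi, stood at 8.49, 10.1 and 9.55 CPM in high-dose livers, against 17.8, 19.6 and 20.2 CPM in controls (-1.04 ± 0.22), with little spread in either group. Apobec1, which edits the apolipoprotein B transcript, differed by -1.22 ± 0.26, the EGR corepressor gene Nab2 by -1.21 ± 0.27, the actin regulator gene Kank1 by -1.36 ± 0.30, Bin2, a membrane-bending protein of leukocytes, by -1.73 ± 0.38 and the leukocyte formin gene Fmnl1 by -1.48 ± 0.33. The widest gap belonged to the glucuronosyltransferase gene Ugt1a7c, with 1.41, 0.493 and 1.81 CPM in high-dose livers, against 10.9, 20.4 and 6.75 CPM in controls (-3.34 ± 0.80). Its last exons are shared with the other Ugt1a genes, so its own level is uncertain. The interferon-induced GTPase gene Gbp11, which has near copies, stood at 2.72, 20.2 and 10.1 CPM in high-dose livers, against 50.7, 48.7 and 61.2 CPM in controls. Ugt1a7c and Gbp11 were named here for the width of their gap, so their lack of overlap was given by selection. Rbm14 and Abcb6 share exon bases with another gene on their own strand, and Tcim, Foxo1, Cebpd, Il6ra, Pim1, Nab2 and Fmnl1 with one on the other strand. The labels do not say whether the counting used strand, so reads of such pairs may be mixed.

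Glucose and amino acid genes had a list score that held in all 3 high-dose livers with TMM factors, but not on library totals. A list's score is the mean log2 CPM of its members minus that of the controls, so the controls centre on 0. For 22 genes of gluconeogenesis and insulin response the score was 0.63, 0.62 and 0.44 in high 1, 2 and 3, against 0.34, -0.28 and -0.07 in the controls, with every high-dose liver above every control. Of its members 15 lay higher, with a list median of 0.51 against 0.03 over all genes, and 6 had no overlap (6.47% over all genes on the higher side), among them Pck1, Gpt2, Got1, Foxo1 and Pfkfb3. On library totals the score was 1.67, 0.20 and 1.49 in high-dose livers, against 0.47, -0.12 and -0.35 in controls. High 2 lay inside the control range there, while 8 of the 22 members had no overlap on the higher side (860 of 16839 over all genes). Gpt2, a transaminase of alanine, stood at 173, 270.5 and 211 CPM in high-dose livers, against 111, 100.4 and 113 CPM in controls (1.01 ± 0.32). Pck1, the key enzyme of glucose release, was close to its highest control at 1717, 1868 and 1767 CPM in high-dose livers, against 1633, 991 and 1223 CPM in controls.

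Plin5, Plin4 and Cidec, 3 genes that act at lipid droplets, lay above the controls in every high-dose liver. Plin5 and Plin4 were named for their gap and Cidec as a member of the adipose and pancreas list, not from a list of droplet genes. G0s2, another droplet gene, which was counted with the neutrophil genes, lay below every control. It stood at 17.8, 17.9 and 5.20 CPM in high-dose livers, against 26.7, 24.8 and 35.6 CPM in controls (-1.09 ± 0.44). Plin5, a droplet coat protein of fat-burning cells, stood at 5.03, 10.9 and 7.86 CPM in high-dose livers, against 2.24, 1.77 and 1.56 CPM in controls (2.09 ± 0.52). Plin4, another droplet coat gene, stood at 4.80, 15.5 and 7.05 CPM in high-dose livers, against 1.53, 2.22 and 1.94 CPM in controls (2.25 ± 0.66). High 2 was the highest library in both. Cidec, which fuses lipid droplets, had 51, 11 and 20 counts in high 1, 2 and 3 and 0 in each control, at least 17.6-fold higher when 3 counts over the control group are taken as its floor. Of 27 PPAR-alpha and fatty acid oxidation genes 23 lay higher (median 0.76). Only Acaa2, Acadvl, Plin5 and Acot1 had no overlap (6.47% over all genes on the higher side). The score was 1.44, -0.08 and 0.42 in high-dose livers, against 0.37, -0.43 and 0.06 in controls. High 2 thus lay inside the control range.

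Urea cycle and haem genes gave further separations. Ass1, which joins citrulline to aspartate, stood at 774, 403 and 327 CPM in high-dose livers, against 189.6, 151 and 105 CPM in controls (1.76 ± 0.51). Asl (0.75 ± 0.30) and Cps1 (0.80 ± 0.37), the enzymes after and before it in the cycle, had no overlap either, and with Pck1 they make up the 4 of 18 periportal genes without overlap (6.47% over all genes on the higher side). Alas1, the rate-limiting enzyme of hepatic haem synthesis, stood at 214, 359.8 and 239 CPM in high-dose livers, against 128, 82.5 and 69.3 CPM in controls (1.54 ± 0.38). Abcb6, a porphyrin transporter, was on the other side with 6.99, 8.95 and 6.40 CPM in high-dose livers, against 16.6, 15.2 and 19.9 CPM in controls (-1.21 ± 0.27). Cyp2e1, which activates carbon tetrachloride, stood at 847, 318 and 329 CPM in high-dose livers, against 238, 153 and 299 CPM in controls (1.11 ± 0.47), so that 2 of the 3 high-dose livers were close to control 3. Of 18 pericentral genes 11 lay higher and 7 lower, with Tbx3, a WNT target, below the controls in all 3 livers (-0.89 ± 0.26).

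Stress genes divided by type. Of 20 integrated and endoplasmic reticulum stress genes 14 lay higher (median 0.58), and the score was 0.74, 0.14 and 0.83 in high-dose livers, against -0.04, 0.07 and -0.03 in controls. Herpud1, a factor of protein degradation at the endoplasmic reticulum, stood at 138, 165 and 157 CPM in high-dose livers, against 101, 47.8 and 63.4 CPM in controls (1.11 ± 0.33), and Hspa5, its main chaperone, was separated too (0.85 ± 0.40). Atf4, the transcription factor of the integrated stress response, lay below the controls in all 3 livers by a small margin (-0.29 ± 0.24). Heat shock genes lay higher in 13 of 15 (median 0.78), with a score of 1.04, 0.44 and 0.35 in high-dose livers, against -0.10, 0.32 and -0.22 in controls, where high 3 barely cleared control 2. On library totals high 2 lay inside the control range of both stress lists. The integrated stress score was then 1.75, -0.22 and 1.86 in high-dose livers, against 0.09, 0.22 and -0.31 in controls. That of heat shock was 2.08, 0.02 and 1.40 in high-dose livers, against 0.03, 0.47 and -0.50 in controls. A pair of p53 targets stood on opposite sides: Bbc3, which promotes apoptosis, at 2.49, 2.37 and 2.34 CPM in high-dose livers, against 3.65, 6.72 and 6.53 CPM in controls (-1.23 ± 0.28), and Trp53inp1, an autophagy factor, at 1.43 ± 0.42. Osgin1, an oxidative stress gene counted with the NRF2 targets, stood at 36.9, 26.8 and 19.7 CPM in high-dose livers, against 43.0, 89.8 and 196 CPM in controls (-1.98 ± 0.47). It was the only 1 of 22 NRF2 genes without overlap (6.52% over all genes on the lower side).

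Clock genes, whose levels depend on the hour of killing, separated in both directions with TMM factors, but only upward on library totals. Per1 (1.02 ± 0.32) and Usp2 (0.70 ± 0.29) lay above the controls in all 3 high-dose livers, and Nr1d1 (-0.72 ± 0.33), Nfil3 (-0.97 ± 0.28), Dbp (-0.62 ± 0.36) and Arntl (-1.19 ± 0.67) below them. Thus 2 of the 20 had no overlap on the higher side and 4 on the lower (6.47% and 6.52% over all genes). On library totals these counts were 3 and 0 (860 and 201 of 16839 over all genes). The list of 20 had a median of -0.16 that became 0.46 on library totals. The hour of killing is not in the labels, so its part in these values was not tested.

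With TMM factors the mean levels of 3 inflammatory signalling lists lay lower in each high-dose liver, but not on library totals. Most of their members overlapped with the controls. The score of 37 TNF and NF-κB genes was -0.49, -0.26 and -0.51 in high-dose livers, against -0.16, 0.34 and -0.17 in controls, that of 26 Toll-like receptor and inflammasome genes -0.38, -0.46 and -0.40 against -0.13, 0.36 and -0.23, and that of 29 interferon response genes -0.51, -0.49 and -0.37 against -0.02, 0.32 and -0.30. Without overlap on the lower side were 10, 7 and 8 members of these lists (6.52% over all genes), and 1, 1 and 0 on library totals. Their medians of -0.44, -0.39 and -0.58 became 0.13, 0.21 and 0.06 when libraries were scaled by their totals, a scale on which the median of all genes moved to 0.71 (0.03 with TMM factors). Each list thus stayed below the bulk of genes on both scales, and its own sign did not. On library totals the TNF and NF-κB score was 0.545, -0.683 and 0.526 in high-dose livers, against -0.034, 0.488 and -0.454 in controls. The Toll-like receptor score was 0.627, -0.84 and 0.609 against -0.006, 0.51 and -0.503. The interferon score was 0.528, -0.912 and 0.675 against 0.109, 0.477 and -0.586. In each list high 1 and 3 thus lay above every control there, and high 2 below every control. Cxcl1, a neutrophil chemokine, stood at 5.09, 14.5 and 8.92 CPM in high-dose livers, against 30.0, 45.2 and 22.6 CPM in controls (-1.78 ± 0.47). Socs3, the feedback inhibitor of interleukin-6 signalling, stood at 4.87, 10.2 and 5.01 CPM in high-dose livers, against 17.0, 14.4 and 21.8 CPM in controls (-1.41 ± 0.43), while the gene of the interleukin-6 receptor lay higher as given above. Tnfrsf1b, a TNF receptor, was the 1 TNF and NF-κB gene with every high-dose liver above the controls (6.47% over all genes). It stood at 21.0, 16.6 and 13.9 CPM in high-dose livers, against 10.1, 6.42 and 5.04 CPM in controls (1.26 ± 0.31).

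The genes at the head of the pathway did not separate. Tnf stood at 0.333, 0.752 and 0.349 CPM in high-dose livers, against 0.679, 1.47 and 0.290 CPM in controls (-0.79 ± 0.66). Nfkb1 (-0.40 ± 0.24) and Rela (-0.17 ± 0.26), subunits of NF-κB, and Nfkbia (0.22 ± 0.22), its inhibitor, overlapped as well. Slamf8, a myeloid receptor of the SLAM family, stood at 0.324, 0.493 and 0.206 CPM in high-dose livers, against 0.830, 0.816 and 0.312 CPM in controls (-0.94 ± 0.84, edgeR adjusted p = 0.626), from 13 to 54 counts a library. Control 3 lay below every high-dose liver for Tnf and inside their range for Slamf8.

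Leukocyte markers differed by cell type. For B cells, 9 of 18 B and plasma cell genes had every high-dose liver below every control (6.52% over all genes). On library totals this held for 3 of the 18. The median was -1.38 (-0.83 on library totals), and the score was -0.87, -0.69 and -0.80 in high-dose livers, against -0.22, 0.49 and -0.27 in controls. On library totals the score was 0.136, -1.1 and 0.211 in high-dose livers, against -0.088, 0.636 and -0.548 in controls. High 1 and 3 lay inside the control range there. Ighd, Cd22, Fcer2a, Bank1 and Ms4a1, all of mature B cells, gave -1.64 to -2.02. Mzb1 and Jchain, which serve antibody secretion, stood higher, Mzb1 without overlap (0.658, 0.775 and 0.412 CPM in high-dose livers, against 0, 0.363 and 0.379 CPM in controls) and Jchain with it. Summed over the 18 genes the level was 82.0 to 124 CPM in high-dose livers and 98.2 to 150.04 CPM in controls, which overlap. Of 14 neutrophil genes 12 lay lower and 4 without overlap (6.52% over all genes), and on library totals these counts were 9 and 1. The 4 were the granulocyte growth factor receptor gene Csf3r (-1.82 ± 0.54), S100a9 (-1.48 ± 0.39), Cxcl1 and G0s2. Of these, Cxcl1 was also counted with the TNF and NF-κB genes, and G0s2 was given above as a droplet gene. The neutrophil score of high 1 (-0.41) was level with controls 1 and 3 (-0.43 and -0.41), and control 2 stood at 0.84. Red cell genes stood at 169 to 216 CPM summed in high-dose livers, against 865, 1370.4 and 186 CPM in controls 1, 2 and 3, so controls 1 and 2 carried several times more globin RNA, and the part of blood in the leukocyte differences was not tested. T and NK cell genes lay lower in 13 of 18 (median -0.41, and 0.39 on library totals) and recruited macrophage genes higher in 11 of 17 (median 0.64, and 1.35 on library totals). The first median was -0.08 without high 2 and -0.07 without control 2, and the other was -0.07 without high 1 and 0.24 without control 3. Kupffer cell genes split 8 higher to 9 lower, with Clec4f, their lectin receptor, at 20.5, 23.0 and 28.5 CPM in high-dose livers, against 54.0, 60.9 and 29.1 CPM in controls, where control 3 lay next to high 3.

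Hepatocyte, ribosomal and respiratory chain genes showed large mean differences that high 2 did not share. Ttr, which encodes a plasma carrier of thyroid hormone, stood at 3405, 179 and 1304 CPM in high 1, 2 and 3, against 323, 229.8 and 251 CPM in controls (2.60 ± 1.09). High 2 was thus below every control while high 1 and 3 were far above them. The hepatocyte list had 17 of 19 genes higher (median 1.21). Its score was 1.89, -0.51 and 1.07 in high-dose livers, against 0.26, -0.14 and -0.12 in controls. In 10 of its genes high 1 and 3 lay above and high 2 below the controls (6.85% over all genes). All 50 cytosolic ribosomal protein genes lay higher (median 1.22) with a score of 2.07, -0.17 and 0.89 in high-dose livers, against 0.27, 0.10 and -0.37 in controls. All 53 nuclear respiratory chain genes did so too (median 1.45), with 2.21, -0.16 and 1.18 in high-dose livers, against 0.36, -0.13 and -0.24 in controls. Both lists had high 1 and 3 above the controls in most members (46 of 50 and 48 of 53). Over all genes this held in 6.47% with high 2 above too, 11.5% with high 2 within and 6.85% with high 2 below. In the ribosomal and respiratory chain lists 1 and 6 members had no overlap, all on the higher side (6.47% over all genes). The 13 mitochondrially encoded protein genes ran the other way, at -2.13, 0.53 and -1.56 in high-dose livers, against -0.18, -0.20 and 0.38 in controls.

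Most scar matrix genes followed the same split. Col1a1, the main chain of scar collagen, stood at 28.9, 1.79 and 11.1 CPM in high 1, 2 and 3, against 2.24, 5.47 and 4.24 CPM in controls (1.81 ± 0.85), so that high 2 was the lowest of the 6 livers. In the list of fibrillar collagens and other matrix genes 23 of 25 lay higher (median 1.29), and 18 had high 1 and 3 above all controls. In 15 of these 18 high 2 was not (over all genes 11.5% with high 2 within and 6.85% with it below). In the other 3, the proteoglycan genes Dcn and Lum and the matricellular gene Postn, all high-dose livers lay above the controls (6.47% over all genes). On library totals this held for 0 of the 25. Dcn stood at 68.4, 19.6 and 51.5 CPM in high-dose livers, against 12.8, 14.9 and 15.2 CPM in controls (1.70 ± 0.47), and Lum at 10.1, 2.65 and 5.85 CPM against 1.89, 2.05 and 1.34 CPM (1.82 ± 0.57). Matrix protease and inhibitor genes had 0 of 18 without overlap and a score of 1.58, -0.99 and 0.95 in high-dose livers, against -0.27, 0.24 and 0.03 in controls. Timp2, which blocks matrix metalloproteases, stood at 13.5, 2.04 and 9.82 CPM in high-dose livers, against 1.36, 1.71 and 2.14 CPM in controls (2.28 ± 0.62). Among 20 genes of activated stellate cells only Ccn2, a growth factor that promotes scarring, was without overlap (2.08 ± 0.50). Over all genes the share on that side was 6.47%. Acta2, the actin of these cells, stood at 8.23, 0.564 and 1.82 CPM in high-dose livers, against 2.14, 4.50 and 0 CPM in controls.

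**Figure D3:**
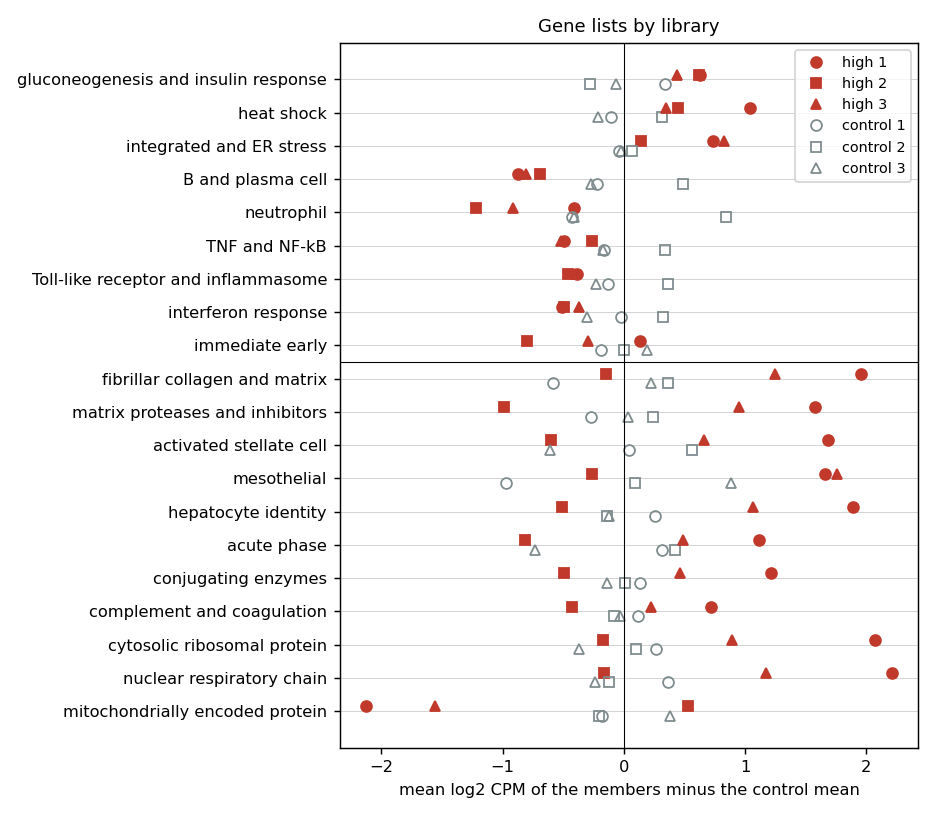
Mean log2 CPM of the members of 20 gene lists minus the control mean (x axis), by library; filled red marks are high-dose livers 1, 2 and 3 and open grey marks are controls 1, 2 and 3. In most lists above the horizontal line the 3 high-dose livers lie together, as for gluconeogenesis (0.44 to 0.63), while below it high 2 parts from high 1 and 3, as for hepatocyte identity (-0.51 against 1.07 and 1.89). The 3 red marks also spread for neutrophil and immediate early genes.

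Mesothelial genes, which mark the liver surface, followed this split in their sum, while muscle genes stood out in high 1 alone. All 10 mesothelial genes lay higher, with 0 of them without overlap (6.47% over all genes on the higher side). Their summed level was 109, 27.4 and 95.2 CPM in high 1, 2 and 3, against 21.1, 36.3 and 62.1 CPM in controls, with no gene at 0 in all 6 libraries. Upk3b, a mesothelial surface marker, stood at 9.76, 1.32 and 12.6 CPM in high-dose livers, against 0.981, 1.51 and 3.57 CPM in controls. Muscle genes summed to 194, 3.59 and 7.35 CPM in high-dose livers, against 5.26, 7.14 and 3.39 CPM in controls, so high 1 stood alone. Of the 12 muscle genes 4 were tested, and Myh4 was at 0 in the 6 libraries. Tnnt3, a troponin of fast skeletal muscle, stood at 28.9 CPM in high 1, with 0 and 0.222 CPM in high 2 and 3, against 0.101, 0 and 0.0892 CPM in controls. The part of such tissue in the matrix and hepatocyte values was not tested. Of 16 adipose and pancreas genes 3 were tested, 7 were at 0 in all 6 libraries, and the sum was 1.76 to 5.57 CPM in high-dose livers and 1.11 to 2.04 CPM in controls. Cidec was the 1 tested fat gene among them.

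**Figure D4:**
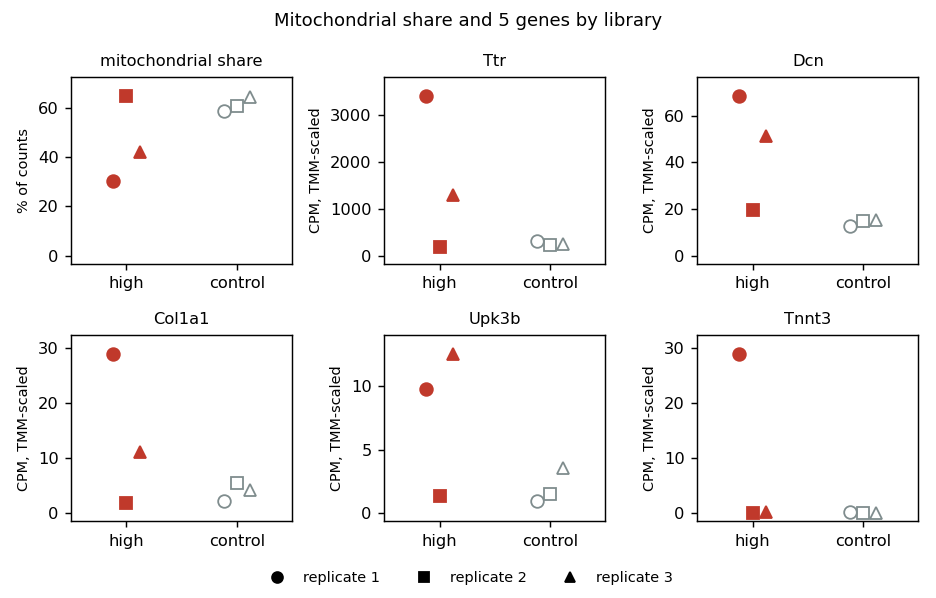
Mitochondrial share of counts (%) and CPM (TMM-scaled) of 5 genes in each library, high-dose livers at left (red) and controls at right (grey), with marks by replicate. High 2 (square) lies nearer the controls than high 1 and 3 do in the mitochondrial share (64.7% against 58.6% to 64.2% in controls), and in Dcn it is at 19.6 CPM against at most 15.2 CPM in controls, and Tnnt3 is at 28.9 CPM in high 1 alone.

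A fit with the mitochondrial share of each library as a covariate moved the list medians by differing amounts. The list medians of 1.29 for matrix, 1.21 for hepatocyte, 1.22 for ribosomal protein and 1.45 for respiratory chain genes became 0.00, -0.47, 0.05 and -0.05. Those of gluconeogenesis and insulin response (0.51), TNF and NF-κB (-0.44), Toll-like receptor and inflammasome (-0.39), interferon response (-0.58) and B cell genes (-1.38) became 0.38, -0.30, -0.48, -0.54 and -0.99. The integrated stress median of 0.58 became 0.07 and the heat shock median of 0.78 became 0.35. edgeR called 0 genes in this fit as well. Because the share itself differs between the groups, this fit takes out part of any difference that goes with it.

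Each high-dose liver also had genes of its own, taken here, where mean log2 CPM was 1 or more, as the gene per direction with the widest gap between that liver and the nearest of the other 5. In high 1 it was on the higher side Tpm2, a tropomyosin of muscle and activated stellate cells, at 22.1 CPM, with 0.846 and 2.68 CPM in high 2 and 3, against 0.892 to 2.58 CPM in controls. On its lower side it was St6gal1, a sialyltransferase, at 0.519 CPM, with 4.37 and 11.1 CPM in high 2 and 3, against 5.22 to 15.9 CPM in controls. In high 2 it was Noct, a rhythmic phosphatase of nicotinamide nucleotides, at 418 CPM, with 71.3 and 116 CPM in high 1 and 3, against 39.0 to 77.1 CPM in controls. The lower gene of high 2 was Cbx7, a Polycomb protein, at 0.423 CPM, with 9.79 and 8.62 CPM in high 1 and 3, against 13.1 to 16.8 CPM in controls, so that it lay below the controls in all 3. The leptin receptor gene Lepr led in high 3, at 7.22 CPM, with 3.19 and 1.50 CPM in high 1 and 2, against 0.602 to 2.87 CPM in controls. Zfp91, a ubiquitin ligase gene that shares exon sequence with Cntf, stood at 0.349 CPM in high 3, with 25.3 and 21.4 CPM in high 1 and 2, against 20.8 to 22.4 CPM in controls. The labels do not say how reads of this pair were assigned.

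Set against the mean of the low and medium groups, a comparison that leaves the controls out, high dose gave no call by edgeR (0 of 16839, 0%, smallest adjusted p = 0.768). DESeq2 called 19 genes (0.113%) and voom 351 (2.08%), and without high 2 edgeR called 54 (0.308%), of which 47 lay higher. On the higher side the smallest p belonged to Jchain (2.00), Rhob (1.03), Igfbp1 (1.86), Ptgis (2.10) and Dcn (1.72), as log2 differences from that mean. Igfbp1, an insulin-repressed binding protein of growth factors, stood at 22.4, 6.32 and 13.6 CPM in high-dose livers, against 3.60 to 7.53 CPM in low-dose and 1.85 to 3.40 CPM in medium-dose livers. High 2 lay inside the low-dose range there. On the lower side were Fam160a2 (-0.99), Abcb6 (-1.16), Ugt1a7c (-3.24), Foxq1 (-0.80) and Slc35d2 (-0.69). Fam160a2, a cargo adaptor of endosomes, stood at 4.87, 8.01 and 5.01 CPM in high-dose livers, against 10.4 to 12.3 CPM in low-dose and 10.7 to 13.8 CPM in medium-dose livers, with no overlap. Abcb6 and Slc35d2, which lay below all controls, were thus also below the mean of the other curcumin groups, at an adjusted p that did not pass.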

How the data were processed

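Whole-liver RNA of 12 mice was sequenced, and the 6 libraries of the high and control groups were described here, grouped by the labels. The authors deposited 1 table of raw gene counts, not normalized, with a column per library. STAR 2.7.10b, StringTie 2.2.1, fastp 0.23.4 and the build mm39 appear in the submitters' processing notes, which give no role, order or counting step. Symbols from a supplied name table matched 91.48% of 56923 IDs. Libraries held 36015134 to 70376474 counts, so 3 counts correspond to 0.0426 to 0.0833 CPM, a limit that covers counting error only.

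Counts were tested in R 4.3.3 with edgeR 4.0.16 (filterByExpr, TMM, robust quasi-likelihood fit of all 12 libraries, Benjamini-Hochberg over the genes tested, threshold 0.05), and again with DESeq2 1.42.0 and limma 3.58.1 voom. CPM and log2 CPM (prior count 2) used TMM factors, and overlap was judged on log2 CPM. The script was tested on simulated counts. Members, lists and tests were chosen with earlier results of these data known. Named genes were the 10 per direction with the smallest p (mean log2 CPM of at least 1, no predicted loci, immunoglobulin segments or mitochondrial genes), the 10 with the widest gap, those of single libraries, up to 5 per list with the smallest p, Slamf8, Tnf, Nfkb1, Rela, Nfkbia, Alb, Cyp2e1, Col1a1 and Acta2, and the 5 per direction with the smallest p against low and medium. List members without overlap were added after their values were seen. Alternatives were other scalings, filters and tools, left-out libraries, a replicate block and the mitochondrial share as a covariate.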

Additional observations from a re-analysis of the deposited data

How the results depend on the processing

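edgeR called 0 genes between high dose and control under each alternative run, leaving out single libraries included (0 each), while DESeq2 called 172 and limma voom 256. Against the mean of low and medium these gave 19 and 351, and leaving out single libraries 0 to 54, the upper value without high 2. Genes without overlap numbered 2187, 1061 on library totals, and 3197 to 7937 with a library left out, where fewer libraries make overlap rarer. Replicate numbers did not pair the samples (same-number correlations of 0.07, -0.10 and -0.06), and a replicate block gave 0 calls. Of the named genes' log2 fold changes, 15 of the alternative values changed sign. On library totals Atf4 was at 0.36, Dbp at 0.12, Foxq1 at 0.38, Nfkb1 at 0.22, Rela at 0.38 and Zfp91 at 0.082, where the median over all genes was 0.71, against 0.03 with TMM. With the mitochondrial share as a covariate Acta2 was at -1.50, Alb at -0.64, Col1a1 at -0.68, Rela at 0.16, Tnnt3 at -5.11, Tpm2 at -0.21 and Ttr at -0.33. With single libraries left out Acta2 ran between -0.88 and 1.75 and Zfp91 between -0.99 and 0.12. The cause was not tested. List medians moved by more than the spread between libraries in 60 of 732 alternative values. Depth limits low genes such as Cidec, at 51, 11 and 20 counts in high 1, 2 and 3.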

Other observations

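Genes of the acute phase, proliferation and conjugation were also measured. Of 21 acute phase genes 18 lay higher (median 0.59). Without overlap were 2 on the higher side and 2 on the lower (6.47% and 6.52% over all genes). The acute phase median was 0.015 without high 1, 0.91 without high 2 and 0.18 without control 3. Serpina3m, a protease inhibitor, stood at 44.4, 25.6 and 49.4 CPM in high 1, 2 and 3, against 16.9, 14.8 and 12.9 CPM in controls, and Itih3, a hyaluronan-binding plasma protein, at 156, 177 and 164 CPM in high-dose livers, against 247, 319 and 304 CPM in controls. Of 29 cell cycle genes 18 lay lower (median -0.25, 0.42 on library totals, -0.14 without high 3 and -0.03 without control 2), with Cenpa, a centromere histone, at 2.51, 3.01 and 2.15 CPM in high-dose livers, against 4.73, 5.73 and 5.51 CPM in controls. Rrm2, which supplies nucleotides for DNA synthesis, stood on the other side at 1.60, 1.03 and 1.46 CPM in high-dose livers, against 0.805, 0.529 and 0.267 CPM in controls.

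Among 27 cytochrome P450 genes and partners 21 lay higher (median 0.62) and 4 had no overlap on the higher side (6.47% over all genes). Cyp2b10, a target of the xenobiotic receptor CAR, stood at 1.66, 1.67 and 1.66 CPM in high-dose livers, against 0.704, 0.604 and 0.245 CPM in controls, with almost no spread in the high-dose group. Of 30 genes of conjugating enzymes 23 lay higher (median 0.52). Gstp1, a glutathione transferase, was the 1 without overlap (6.47% over all genes on the higher side). Its 107, 43.0 and 56.9 CPM in high-dose livers, against 38.3, 41.0 and 41.5 CPM in controls, put high 2 next to the controls. Bile acid genes split into 7 higher and 14 lower with 0 of 21 without overlap, and cholesterol genes into 13 higher and 10 lower with 0 of 23, splits that became 20 and 1, and 22 and 1, on library totals. With the mitochondrial share as a covariate the medians of the acute phase, cytochrome P450 and conjugating enzyme lists were -0.81, -0.33 and -0.25, and without high 1 the median for cytochrome P450 genes was 0.41 and that for conjugating enzymes 0.081. Leaving out high 2 gave conjugating enzymes 0.93.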
